A study of Bos taurus with 12 samples.

Results

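Blood vessel endothelial genes were followed in the mammary gland of lactating Holstein cows before and during feed restriction. The 10 genes were chosen by name for what they are known to do in vessels, with earlier results of these data known. They were VEGFA, KDR, TEK, TIE1, ENG, CDH5, PECAM1, CLDN5, VWF and NOS3. Every non-control probe was taken whose RefSeq transcript belonged to one of them, which gave 28 of the 43653 probes and 10 of the 12787 named genes of the array. The tissue was a biopsy of a rear udder gland, and each RNA sample was hybridized to 1 one-colour (Cy3) bovine oligonucleotide array. The 12 arrays formed 2 groups of 6: CONT, taken on day 0 while the cows had free access to a lactation diet, and REST, taken on day 6 of a feed allowance set at 50% of the net energy requirement for lactation. Both groups held the same 6 multiparous cows in midlactation, numbered 1 to 6 here, so that each REST array had a CONT array of its own cow.

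A biopsy of lactating mammary gland holds milk-secreting epithelium, myoepithelium, stroma, blood cells and the capillaries that supply the secretory cells with nutrients. Endothelial cells line those capillaries. The growth factor VEGFA is made by many cell types and acts on endothelial cells through its receptor KDR, while the TIE receptors TEK and TIE1 belong to the angiopoietin system that holds vessels in a quiet state. ENG is a coreceptor for ligands of the TGF-beta and BMP family. CDH5, PECAM1 and CLDN5 join neighbouring endothelial cells, VWF is a clotting protein that endothelial cells and platelets store and release, and NOS3 makes the nitric oxide that relaxes the vessel wall. In bulk tissue, fewer endothelial cells and less RNA per endothelial cell cannot be told apart.

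The arrays lay on 3 slides, with 4 arrays each, and the pair of arrays of every cow shared a slide. Slide 1 held cows 1 and 2, slide 2 held cows 3 and 4, and slide 3 held cows 5 and 6. Slide 3 was dimmer, with 41.9 to 48.0% of its spots well above background against 61.8 to 67.9% on the other slides, so that low signals were measured less well in cows 5 and 6. The series description counts 5 cows, and the study's methods state that 1 Holstein cow was left out because of mastitis. The labels name 6 cows and do not mark that one, so the changes of the 9 tested genes and the counts of calls were also computed without each cow in turn. The related lists, the comparisons between genes and the correlations were computed with all 6 cows. Day, feeding period and the order of the 2 biopsies of a cow are the same contrast in this design, and their parts cannot be told apart. Per the study's methods the rear gland sampled also alternated.

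Signals are given as log2 values relative to the 75th percentile of their array, so that a change of 1 is a doubling of signal. A probe was tested when the scanner software called it well above background on every array of at least 1 group. Of the 10 genes, 9 were tested, through 22 of their 28 probes. Of the 9 endothelial markers among them, leaving out VEGFA, 8 were well above background on every array of at least 1 group, and TIE1 was so on 5 of 6 arrays of each group. Of the 11 luminal epithelial markers of the gland itself on the array, 10 were tested by the same criterion.

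Feed restriction went with a higher signal of VWF and CLDN5 and a lower signal of ENG, while the tests of the other 6 tested genes did not pass. VWF rose 1.45-fold and CLDN5 1.67-fold, both in 6 of 6 cows, as did 7.49% of all tested genes. ENG fell to 0.801 of its CONT signal on average, with a lower REST value in 5 of 6 cows. Counting each gene by its probe of highest signal, 3 of 9 tested genes passed (adjusted p under 0.1, limma with the cow as a block), 2 higher and 1 lower. Over all 7930 tested genes, 16.2% passed, 6.94% higher and 9.27% lower in REST. Over the probes, 8 of 22 passed, 6 higher and 2 lower, beside 16.0% of all tested probes, 7.22% higher and 8.78% lower. Of these 8, the dimmest VWF probe was well above background on all REST arrays but on 5 of 6 CONT arrays, so it was tested only through the group in which it was high. Without the cow as a block, VWF and CLDN5 passed and ENG did not (2 of 9, beside 4.40% of all tested genes). The median change of the 9 genes was 0.03, beside -0.01 over all tested genes, with 5 of the 9 above 0 and 4 below.

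**Figure D1:**
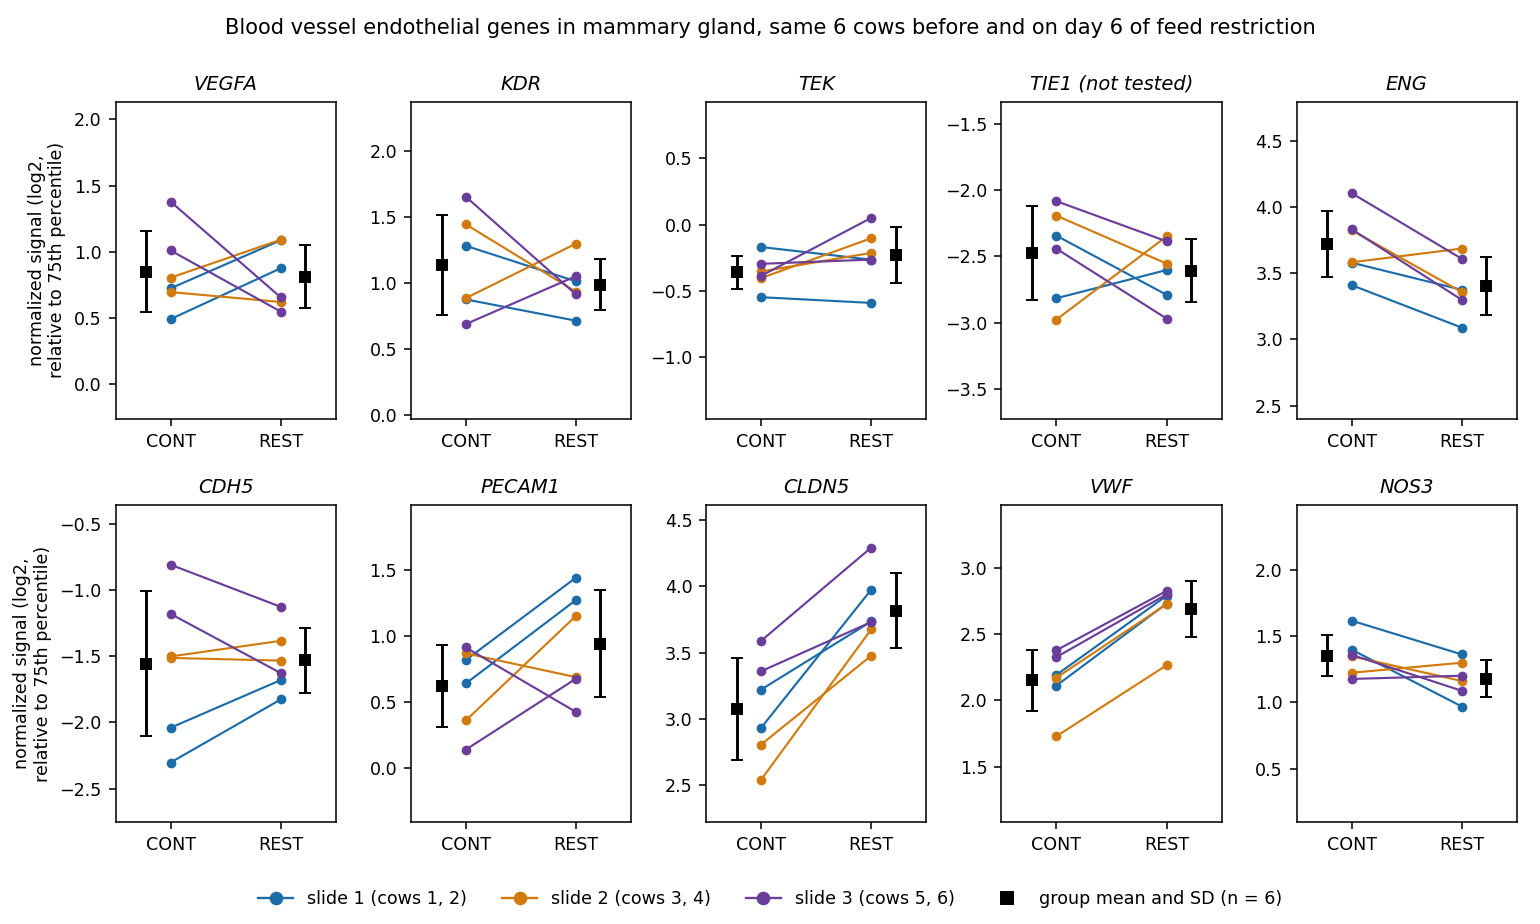
Normalized signal (log2, relative to the 75th percentile of the array) of each gene at its probe of highest signal, in CONT and REST. Each line joins the 2 arrays of a cow, colours mark the slide, black squares and bars are the group mean and SD (n = 6), and all panels span the same number of log2 units. All 6 lines rise for VWF and CLDN5, 5 of 6 fall for ENG, and lines run both ways in the panels of the other genes.

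The ligand VEGFA and the receptors KDR and TEK did not pass the test, and the receptor TIE1 was not tested. VEGFA was measured by 3 probes, each assigned to a different RefSeq transcript. At the brightest (NM_174216), CONT ran from 0.49 through a median of 0.76 to 1.38, and REST from 0.55 through a median of 0.77 to 1.09. The groups overlapped almost fully, and REST was higher in 3 cows and lower in 3. The mean change was -0.04 ± 0.16 (SE, n = 6 cows; 95% interval -0.40 to 0.32; adjusted p = 0.903). The probes of the other transcripts gave -0.09 (NM_001316956) and -0.14 (NM_001316992), with adjusted p of 0.735 and 0.613. All 3 probes placed the same cows at the low end: in cows 5 and 6, both on slide 3, the REST value was lower than the CONT value by 0.46 to 0.81, whichever probe was read. In cow 2 it was higher at every probe, by 0.34 to 0.51. The mean change of VEGFA at its brightest probe was 0.37 on slide 1, 0.11 on slide 2 and -0.59 on slide 3, values from 2 cows each, and the part of the slide in this order was not tested.

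KDR, the main signalling receptor for VEGFA on endothelium, had a CONT range of 0.69 to 1.65 (median 1.08) and a REST range of 0.72 to 1.30 (median 0.97). REST was lower in 4 of 6 cows and higher in cows 3 and 5. The change was -0.15 ± 0.16 (SE; 95% interval -0.51 to 0.21; adjusted p = 0.568). Without cow 3 it was -0.26 and without cow 6 it was -0.03. Its second probe was too dim to be tested, being well above background on 4 of 6 arrays of each group.

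TEK, the receptor for the angiopoietins, had the narrowest CONT spread of the 10 genes at their brightest probes, from -0.55 to -0.17 (median -0.37). REST ran from -0.59 to 0.05 (median -0.24), and 4 of 6 cows were higher. The change was 0.13 ± 0.09 (SE; 95% interval -0.08 to 0.34; adjusted p = 0.401), so that a rise of more than 1.27-fold lay outside the interval. Without cow 5 it was 0.07, and after normexp background correction, a model that keeps corrected signals above zero, 0.05. TIE1, the partner receptor of TEK, was represented by 1 probe that was not tested. Its signal ran from -2.98 to -2.08 in CONT (median -2.39) and from -2.97 to -2.35 in REST (median -2.58), with a lower REST value in 4 of 6 cows and the largest rise, 0.63, in cow 3.

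ENG was the only one of the 9 tested genes with a fall that passed. At its brightest probe (A_73_107713), CONT ran from 3.41 through a median of 3.70 to 4.11, and REST from 3.09 through a median of 3.37 to 3.69. The groups overlapped, and the REST value was below the CONT value in cows 1, 2, 4, 5 and 6, by 0.21 to 0.53, whereas in cow 3 it was above by 0.10. The change was -0.32 ± 0.10 (SE, n = 6 cows; 95% interval -0.55 to -0.09; adjusted p = 0.0847; exact sign-flip test over cows, two-sided, p = 0.0625).

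The 4 ENG probes gave negative changes, with the same odd cow. In REST the dimmest exceeded background clearly on 5 of 6 arrays, and it was tested only through CONT, the group in which it was high. The second probe passed as well, at -0.38 ± 0.13 (adjusted p = 0.0975), while the others, at -0.33 and -0.24, had adjusted p of 0.131 and 0.13. Cow 3 was the only cow with a higher REST value at every one of the 4 probes, by 0.07 to 0.16. Within slides the change at the brightest probe was -0.26, -0.18 and -0.52. The direction of ENG held in every alternative tried, but its call did not: the adjusted p was 0.248 without the cow as a block, 0.271 without the block and without moderation, 0.121 with the slide as a block, 0.114 with quantile normalization, 0.104 with a median shift, 0.126 after normexp background correction and 0.204 when dim probes were included. Without cow 1, 2, 4, 5 or 6 it lay between 0.14 and 0.206, and without cow 3 the fall was -0.40 with an adjusted p of 0.0522.

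Of the junction genes, CLDN5 rose, PECAM1 had a positive change that did not pass, and CDH5 lay near 0. CLDN5, a claudin of the endothelial tight junction, had at its brightest probe (A_73_P305616) a CONT range of 2.54 to 3.59 (median 3.08) and a REST range of 3.48 to 4.29 (median 3.73). Every cow was higher in REST, and the groups overlapped only where cow 6 in CONT, the highest of its group, exceeded cow 3 in REST. The change was 0.74 ± 0.11 (SE, n = 6 cows; adjusted p = 0.0115; exact sign-flip test over cows, two-sided, p = 0.03125), with a 95% interval of 0.482 to 1.0001. Single cows rose by between 0.37 (cow 5) and 1.14 (cow 4).

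The second CLDN5 probe, assigned to the same transcript, rose in 6 of 6 cows, by 0.68 ± 0.11 (adjusted p = 0.0143). The last and dimmest probe gave 0.32 ± 0.16 (adjusted p = 0.243). It was higher in 5 of 6 cows, and in cow 5, on the dim slide, it was lower by 0.47. The change at the brightest probe was 0.78, 0.90 and 0.54 within slides 1, 2 and 3, and the call held without the cow as a block (adjusted p = 0.057).

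PECAM1, an adhesion molecule of endothelial cells that platelets and leukocytes also carry, ran at its brightest probe from 0.14 to 0.91 in CONT (median 0.73) and from 0.42 to 1.44 in REST (median 0.92). REST was higher in cows 1, 2, 4 and 5 and lower in cows 3 and 6. The change was 0.32 ± 0.17 (SE; 95% interval -0.08 to 0.71; adjusted p = 0.27). A second probe of the same transcript gave 0.35 ± 0.13 (adjusted p = 0.125), higher in 5 of 6 cows, and passed after normexp background correction (adjusted p = 0.063). Both probes followed an order of slides, with 0.63, 0.31 and 0.02 at the first and 0.75, 0.28 and 0.02 at the second for slides 1, 2 and 3. The part of the slide was not tested.

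CDH5, the cadherin of the endothelial adherens junction, ran from -2.30 to -0.81 in CONT (median -1.51) and from -1.83 to -1.13 in REST (median -1.58). Its CONT values were lowest in cows 1 and 2 and highest in cows 5 and 6, and the REST values lay within the CONT range. The mean change was 0.03 ± 0.13 (SE; 95% interval -0.27 to 0.33; adjusted p = 0.912), made up of 0.42 on slide 1, 0.05 on slide 2 and -0.38 on slide 3. A second probe gave -0.12 ± 0.10 (adjusted p = 0.483), and the last was well above background on 1 CONT array and on 0 REST arrays.

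VWF gave the most even change of the 10 genes. At its brightest probe (A_73_118403), CONT ran from 1.73 through a median of 2.18 to 2.38, and REST from 2.27 through a median of 2.76 to 2.83. Cow 4 was the lowest of both groups, and its REST value was the only one that fell within the CONT range. Each cow rose, by between 0.45 and 0.62, and the change was 0.54 ± 0.07 (SE, n = 6 cows; 95% interval 0.38 to 0.70; adjusted p = 0.00726; exact sign-flip test over cows, two-sided, p = 0.03125, and no smaller p is possible with 6 cows). The 95% interval of the fold was 1.30 to 1.63. The change was 0.61, 0.55 and 0.46 within slides 1, 2 and 3, and the call held without the cow as a block (adjusted p = 0.0541).

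The array held 7 probes for VWF, all assigned to the same transcript, and the 4 that were tested all rose in 6 of 6 cows, beside 7.76% of all tested probes. The second (A_73_P138521) ran from 1.001 to 1.34 in CONT and from 1.49 to 2.03 in REST, and was the one tested probe of the 10 genes whose groups did not overlap. Over all tested probes, 0.742% had all REST values above all CONT values. Its change was 0.54 ± 0.08, and the next in order of signal gave 0.61 ± 0.12 and 0.51 ± 0.09 (adjusted p = 0.0105, 0.0234 and 0.0192). The last of these, which entered the test only through REST, was dim and did not pass after normexp background correction (0.06, adjusted p = 0.536) or without the cow as a block (adjusted p = 0.395).

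The remaining 3 VWF probes were not tested. The fifth in order of signal was well above background on 4 CONT and 5 REST arrays and higher in REST in 6 of 6 cows, by 0.28 to 1.68. The sixth was well above background on 0 CONT arrays and on 3 REST arrays, and the seventh on no array, so that neither gives a level. Because platelets also hold VWF, their markers are given beside it. Among the platelet genes on the array, PF4 and TUBB1 were not well above background on any array, and ITGB3 was so on 4 of 6 arrays of each group. ITGA2B, the one that was tested, ran from -2.19 to -1.73 in CONT and from -2.16 to -1.64 in REST, with a change of 0.19 ± 0.10 (adjusted p = 0.249).

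NOS3, the endothelial nitric oxide synthase, ran from 1.18 to 1.62 in CONT (median 1.36) and from 0.97 to 1.36 in REST (median 1.18). It was lower in REST in cows 1, 2, 4 and 5 and slightly higher in cows 3 and 6. The change was -0.17 ± 0.09 (SE; 95% interval -0.38 to 0.03; adjusted p = 0.248), and a second probe gave -0.16 ± 0.10 (adjusted p = 0.319) with 5 of 6 cows lower.

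**Figure D2:**
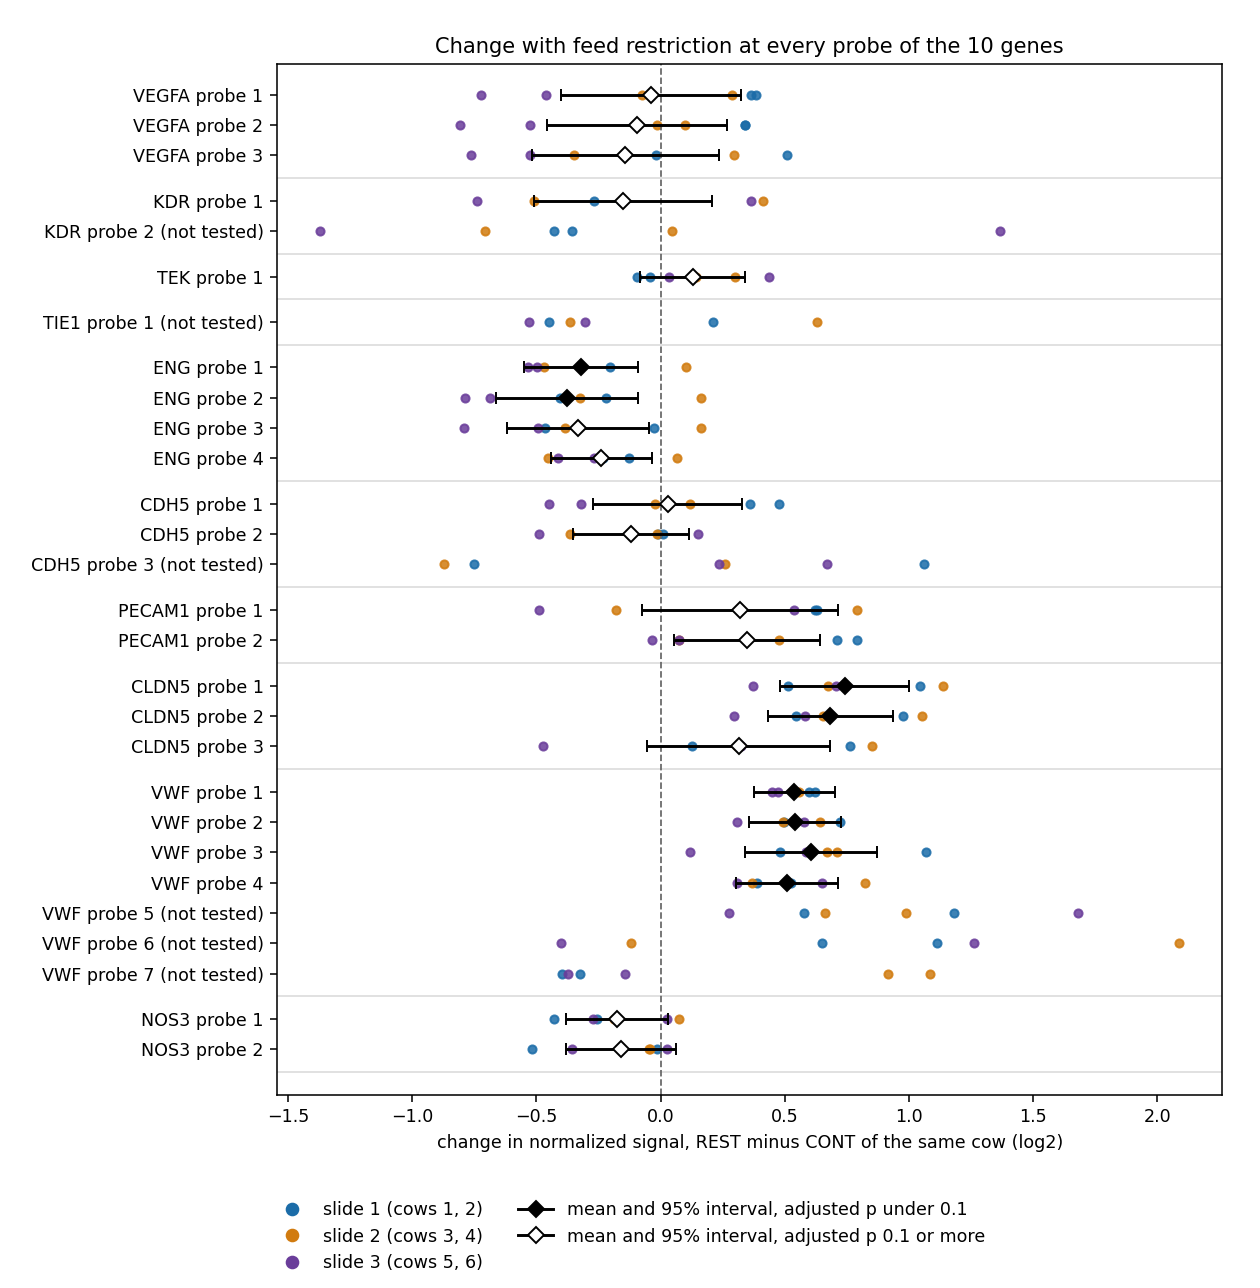
Change in normalized signal (log2, REST minus CONT of the same cow) at all 28 probes of the 10 genes, ordered within a gene by signal, with the probe of highest signal first. Small points are cows, coloured by slide, and diamonds and bars are the mean and 95% interval from limma for the 22 tested probes, filled where the adjusted p was under 0.1. The intervals of all 4 tested VWF probes and of 2 of 3 CLDN5 probes lie above 0, as does that of the second PECAM1 probe with an open diamond, those of the 4 ENG probes lie below 0, and the 6 probes without a diamond were too dim to be tested.

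The sizes of the changes were also compared between the genes, within cows. Between ENG and VWF the difference in change was -0.86 ± 0.21 (SD over 6 cows), and between ENG and CLDN5 it was -1.06 ± 0.37, each with ENG the lower in 6 of 6 cows. VWF also exceeded VEGFA, KDR, TEK, CDH5 and NOS3 in 6 of 6 cows. Among all 36 pairs of the 9 tested genes, 14 had the same order in every cow (exact sign-flip test, two-sided, p = 0.03125 for each, the smallest possible, and 0.0804 after Benjamini-Hochberg adjustment over the 36 pairs). CLDN5 exceeded VWF by 0.20 ± 0.27, in 4 of 6 cows (p = 0.156 in the same exact test, adjusted 0.268), which does not separate their sizes. These p-values compare changes within the same 6 cows, and the pairs share genes. Every one of the 14 pairs except TEK with NOS3 held VWF, CLDN5 or ENG, whose own calls are given above. The share among pairs of all tested genes was not computed, so the count of 14 has nothing beside it.

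**Figure D3:**
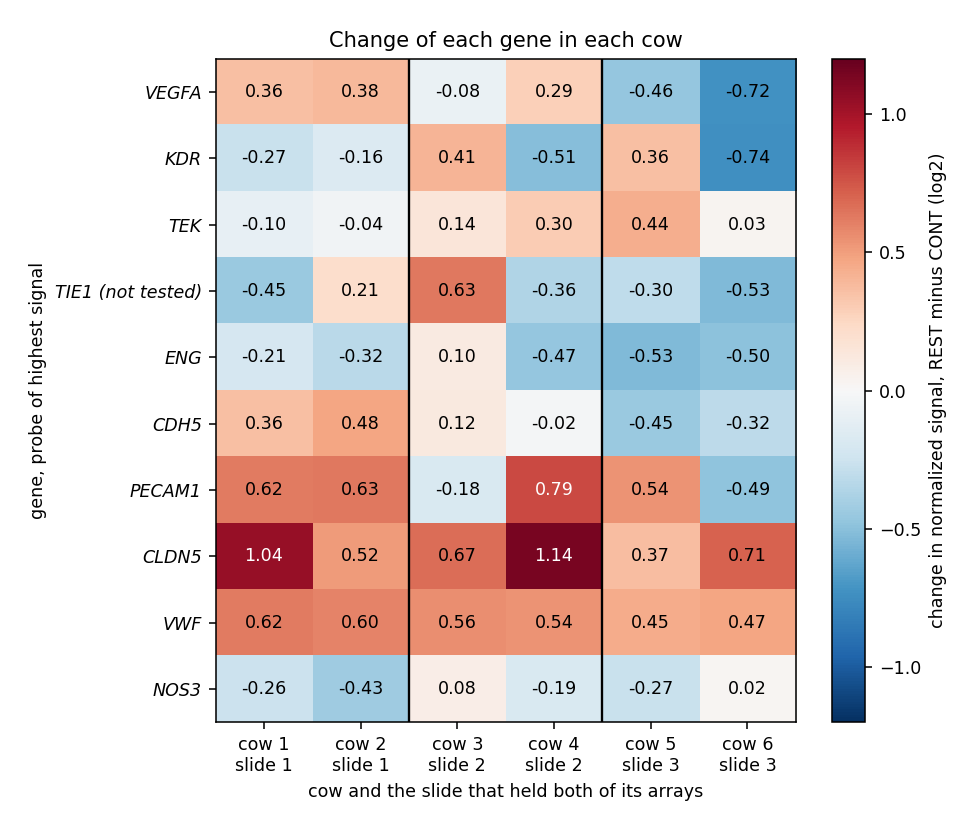
Change in normalized signal (log2, REST minus CONT) of each gene at its probe of highest signal in each of the 6 cows, with vertical lines between the 3 slides. VWF and CLDN5 are positive in all cows, ENG is negative in all but cow 3, and VEGFA and CDH5 are positive in cows 1 and 2 and negative in cows 5 and 6.

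Over the 12 arrays, each gene's correlation with the mean of the other tested members ran from r = -0.38 for NOS3 to 0.50 for VEGFA, with 0.27 for VWF and 0.08 for ENG. Among the 7920 other genes compared, the 5 with the signal most like the mean of the 9 members were ST3GAL2 (r = 0.93), DOCK6 (0.92), BAZ2A (0.86), GNPAT (0.85) and SF3A2 (0.85). These correlations describe 12 arrays from 6 cows that share slides, and no p is attached. Of these 5 genes, DOCK6 passed the test between the periods (0.32, adjusted p = 0.0882).

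The ligands and receptors around these genes were read from lists of related genes. Of 37 genes in the list of VEGF, angiopoietin, Notch and related vessel signals, 30 were on the array and 21 were tested. Of these, 2 rose and 2 fell, beside 6.94% and 9.27% of all tested genes. DLL4, a Notch ligand of sprouting endothelium, rose by 1.01 ± 0.18 (adjusted p = 0.0193, 5 of 6 cows), and ANGPTL4, a secreted inhibitor of lipoprotein lipase, rose by 1.55 ± 0.39 (adjusted p = 0.0451, 5 of 6 cows). The ANGPTL4 rise was 2.46 on slide 1, 1.95 on slide 2 and 0.25 on slide 3. ADM, a peptide that widens vessels, fell by 1.15 ± 0.14 (adjusted p = 0.00644) and APLNR, the apelin receptor, fell by 0.63 ± 0.09 (adjusted p = 0.00928), both in 6 of 6 cows. The other 17 tested genes did not pass, and the median of the list was 0.14. CALCRL (0.35), named after its value had been seen, was tested only through REST, the group in which it was high. After normexp background correction 3 rose and 2 fell, beside 9.02% and 8.65% of all tested genes. The further rise was TGFBR2, named after its values had been seen (0.22, adjusted p = 0.0812, against 0.16 and 0.283 before the correction).

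Looking at the growth factors by role, chosen after their values had been seen, none of the tested VEGF and angiopoietin ligands passed. VEGFB had a change of 0.25 (adjusted p = 0.2), VEGFC of -0.38 (0.108) and VEGFD of -0.08 (0.615). ANGPT1 had a change of 0.30 (adjusted p = 0.118) and ANGPT2, its context-dependent antagonist at TEK, of -0.49 (0.373). FLT1, the other main VEGF receptor, PGF and ANGPT4 were on the array and were not tested.

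Other genes of endothelial cells were read in the same way, beside the 6.94% of all tested genes that rose and the 9.27% that fell. Of 28 tested surface, junction and secreted genes, 3 rose and 0 fell: ICAM1, the leukocyte adhesion molecule (0.75 ± 0.13, adjusted p = 0.0175), CYYR1 (0.41 ± 0.10, 0.0455) and SPARCL1, a matrix-associated protein (0.33 ± 0.11, 0.093). Their median was 0.13, with 20 of 28 above 0. Among the latter, TSPAN7 (0.71) and RASGRP3 (0.15), named after their values had been seen, were tested only through REST, the group in which they were high. After normexp background correction, 8 of the 28 rose and 0 fell, beside 9.02% and 8.65% of all tested genes. The 6 further rises, named after their values had been seen, were CD34 (0.33, adjusted p = 0.0645), CLEC14A (0.29, 0.0791), EGFL7 (0.31, 0.0333), ECSCR (0.23, 0.0817), JAM2 (0.22, 0.0986) and JAM3 (0.34, 0.0361). Before that correction the largest changes below 0, also named after their values had been seen, did not pass. They were PCDH12 (-0.54, adjusted p = 0.248), VCAM1 (-0.48, 0.104), NOSTRIN (-0.41, 0.253) and MCAM (-0.32, 0.126). VCAM1 was tested only through CONT, the group in which it was high. ICAM1 was dim in CONT, well above background on 5 of 6 arrays, so that it was tested only through REST, and its change was 0.24 (adjusted p = 0.123) after normexp background correction. Of 11 tested endothelial transcription factors, KLF4 rose by 0.57 ± 0.08 (adjusted p = 0.00947) and LMO2 by 0.37 ± 0.12 (0.0975), none fell, and the median was 0.14.

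The hypoxia and nitric oxide lists stood beside the same shares. Of 19 tested hypoxia-responsive genes other than VEGFA, 1 rose and 5 fell, with a median of -0.09. ANGPTL4 and ADM, given above, belong to this list too, and with them the glucose transporter SLC2A1 fell by 0.54 ± 0.09 (adjusted p = 0.0153) and HIF1A, the oxygen-regulated transcription factor, fell by 0.54 ± 0.11 (0.0294), both in 6 of 6 cows. The other falls, named after their values had been seen, were P4HA1 (-0.32, adjusted p = 0.0903) and EGLN1 (-0.27, 0.0834), also in 6 of 6 cows. After normexp background correction 2 genes of the list rose and 3 fell, beside 9.02% and 8.65% of all tested genes. P4HA1 (-0.23, adjusted p = 0.115) and EGLN1 (-0.18, 0.183) lost the call. NDRG1, named after its values had been seen, passed with a rise of 0.32 (0.0724) against a change of 0.24 (0.179) before the correction. Of 15 tested nitric oxide genes, 0 rose and 2 fell, with a median of -0.10: ARG2, an arginase that uses the substrate of NOS3, fell by 1.39 ± 0.30 (adjusted p = 0.0329) and NOS2, the inducible synthase, fell by 0.48 ± 0.15 (0.0823), or by 0.26 after normexp background correction (0.0666).

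**Figure D4:**
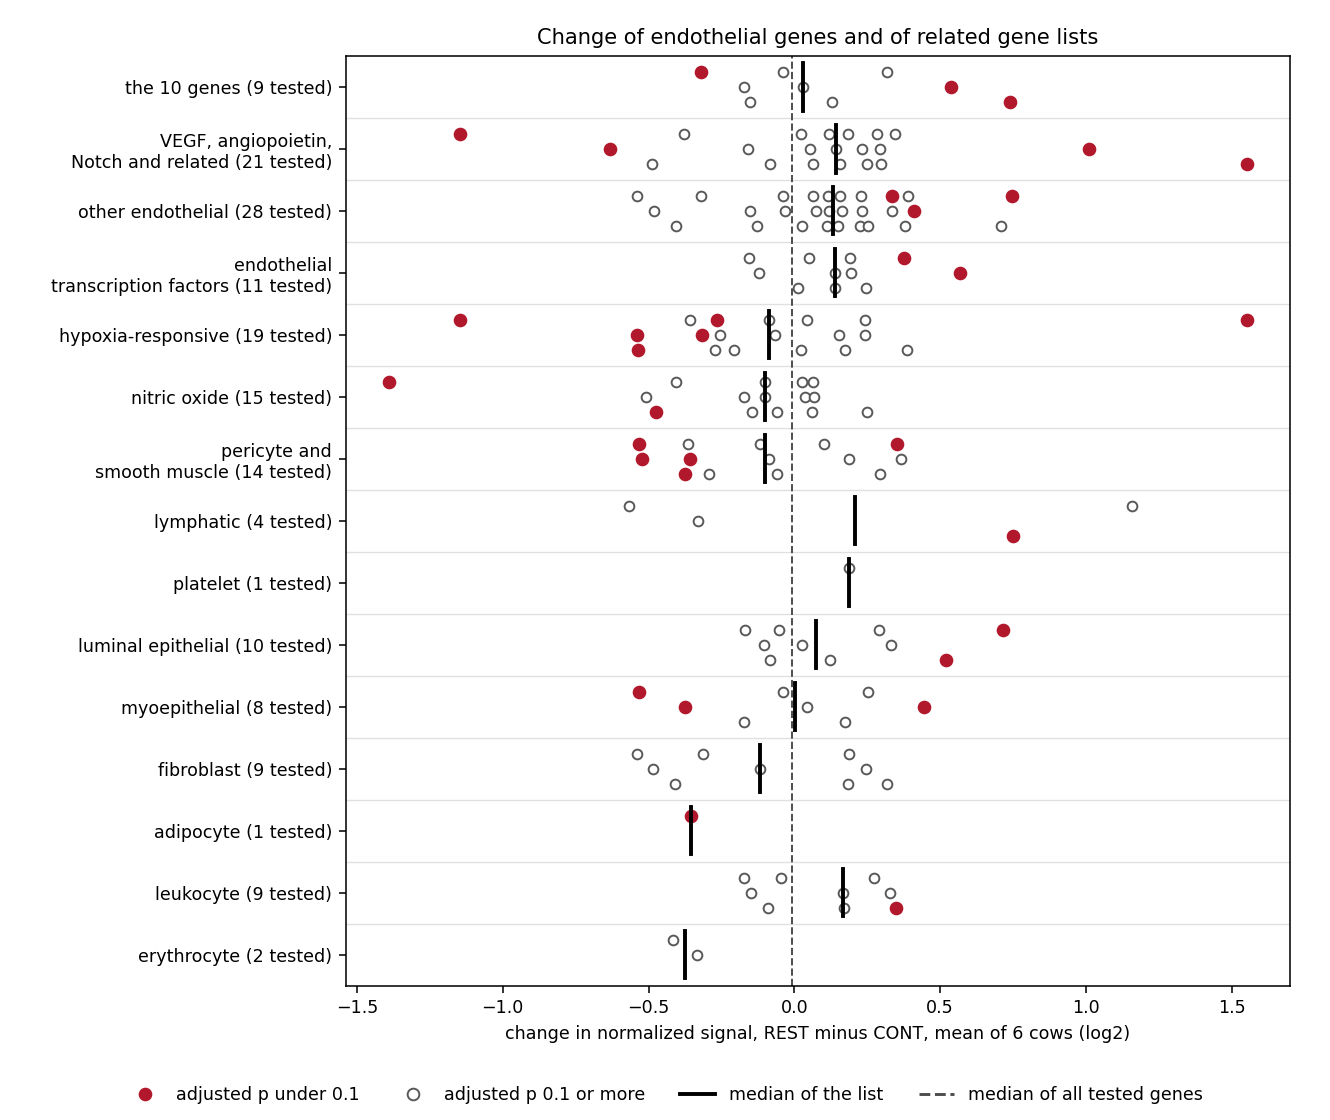
Change (log2, REST minus CONT, mean of 6 cows) of every tested gene of the 10 endothelial genes and of 14 related lists, each at its probe of highest signal. Red points had an adjusted p under 0.1, black bars are list medians, and the dashed line is the median of all tested genes. Called genes lie on both sides of the line in 4 of the lists and among the 10 genes.

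Markers of other cell types are given beside the same shares of all tested genes (6.94% higher and 9.27% lower), and called ones lay in both directions. Of 14 tested pericyte and smooth muscle genes, CNN1 (-0.53), HEYL (-0.52), ACTA2 (-0.38) and RGS5 (-0.36) fell, and CSPG4, named after its value had been seen, rose (0.35), with adjusted p between 0.0323 and 0.0857. After normexp background correction the calls of RGS5 (-0.22, adjusted p = 0.152) and CSPG4 (0.10, 0.471) were lost. That left 0 rises and 3 falls, beside 9.02% and 8.65% of all tested genes. CNN1 and ACTA2 are also 2 of the 8 tested myoepithelial genes, of which KRT17 rose (0.44, adjusted p = 0.0789). The myoepithelial list mean ran from 2.17 to 2.92 in CONT and from 2.15 to 2.88 in REST, lower in REST in 5 of 6 cows, and TP63 was not well above background on any array. The mean signal of the pericyte and smooth muscle list lay between 0.96 and 1.32 in CONT and between 0.76 and 1.40 in REST, higher in REST in 2 of 6 cows. The mean over the 9 tested members lay between 1.04 and 1.56 in CONT and 1.23 and 1.45 in REST, higher in 5 of 6. That mean includes VEGFA and the 2 called rises, VWF and CLDN5. Of the 9 changes, 4 were below 0, and their median was 0.03.

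Of 10 tested luminal epithelial genes, KRT8 (0.72 ± 0.10, adjusted p = 0.0089) and KRT18 (0.52 ± 0.15, 0.068) rose and none fell, and the list mean ran from 2.60 to 3.05 in CONT and from 2.70 to 3.27 in REST, higher in 5 of 6 cows. Of 4 tested lymphatic endothelial genes, LYVE1 rose (0.75 ± 0.24, adjusted p = 0.087), or by 0.44 after normexp background correction (0.0336). The other 3, named after their values had been seen, did not pass and differed in sign: PROX1 -0.57 (adjusted p = 0.104), RELN -0.33 (0.209) and CCL21 1.16 (0.17). CCL21 was tested only through REST, the group in which it was high, and its change was 0.24, 0.47 and 2.77 within slides 1, 2 and 3, or 0.32 after normexp background correction (adjusted p = 0.148). PROX1 passed after that correction, with a fall of 0.35 (adjusted p = 0.0817). The lymphatic list mean ran from -2.22 to -1.06 in CONT and from -1.29 to -0.89 in REST, with CCL21 among its 4 genes. Of 9 tested leukocyte genes, CD3E rose (0.35, adjusted p = 0.0781), the list mean ran from 0.23 to 0.44 in CONT and from 0.26 to 0.66 in REST, higher in 4 of 6 cows, and ITGAM and MS4A1 were not well above background on any array. FABP4, the one tested adipocyte gene, which endothelial cells also express, fell by 0.35 ± 0.09 (adjusted p = 0.0447), with 7.14 to 7.72 in CONT and 6.61 to 7.18 in REST, while PLIN1 and AQP7 were not well above background on any array. None of 9 tested fibroblast genes or of 2 tested erythrocyte genes passed, and their list means ran from 1.12 to 2.11 and from 0.998 to 1.83 in CONT and from 0.84 to 1.97 and from 0.48 to 1.61 in REST. The erythrocyte mean was lower in REST in 6 of 6 cows and the fibroblast mean in 3 of 6. The tested erythrocyte genes, named after their values had been seen, were HBA (-0.33, adjusted p = 0.108) and AHSP (-0.42, 0.103), each lower in 5 of 6 cows. The erythrocyte genes ALAS2 and SLC4A1 were not well above background on any array. Of the called genes of all these lists, DLL4, ANGPTL4, ADM, ICAM1, KLF4, SLC2A1 and ARG2 also passed without the cow as a block, and none of the markers of other cell types did. Some passed at their brightest probe but not at every tested probe. LMO2, CNN1 and KRT17 passed at 1 of 2 tested probes, and SLC2A1, KRT8 and KRT18 at 2 of 3. After normexp background correction EPCAM of the luminal list (0.38, adjusted p = 0.0518) and CSF1R of the leukocyte list (0.28, 0.0882), both named after their values had been seen, also rose. The part of these cell types in the changes of VWF, CLDN5 and ENG was not tested.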

How the data were processed

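Mammary biopsies were taken before (CONT) and on day 6 of (REST) feed restriction. Per the study's methods the biopsy sites alternated between the rear glands of the udder. Per the file headers, the authors extracted spot intensities with Agilent Feature Extraction 11.0.1.1. The deposited scanner files hold a background-subtracted processed intensity on a linear scale, not scaled between arrays, and the deposited intensity table equals it in all 45220 cells of each array. No spot was saturated, and 1 to 13 outlier spots per array were left out.

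From these the log2 intensity minus the 75th percentile of each array was computed, as the methods describe. Repeat spots were averaged. REST was compared with CONT in limma 3.58.1 (R 4.3.3; lmFit and eBayes) with the cow as a fixed block, two-sided, with Benjamini-Hochberg adjustment over 19403 tested probes and a threshold of 0.1. Intervals are 95% limma intervals. The labels give the same animal in both periods, and deviations from the group means correlated with r of 0.356 to 0.574 between the 2 arrays of a cow and -0.33 to 0.135 between cows. A gene was counted by its probe of highest mean signal among those tested. Gene symbols came through RefSeq transcripts from a reference table of another assembly than that of the array design, so no positions are given.

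The members, the 14 related lists and the tests were chosen with earlier results of these data known. All members were named, with at most 4 called genes from each list by absolute change and the 5 genes most correlated with the members, and further genes, apart from those given as not tested or not well above background, are marked in the text as named after their values had been seen. Alternatives were the cow or slide as another kind of block or none, quantile, median and normexp processing (offset 50, on median spot intensities), the deposited table, other filters, other eBayes settings, a test without moderation, the mean of a gene's probes and each cow left out. The models were tested on simulated data. The number of arrays limits the precision. Python 3.11.15 with pandas 2.3.3 and matplotlib 3.10.9 read and drew the values. The values of some genes of the related lists are not reported here.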

Additional observations from a re-analysis of the deposited data

Results flagged for a closer look

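In REST, the VWF signal of cow 4 at the brightest probe (2.27) lay apart from those of the other 5 cows (2.73 to 2.83), with a gap to the nearest that was 0.821 of the range of the group. Of 27 groups of values examined this was the 1 that stood out, and chance gives about 1 in 20, or 1.35 here.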

How the results depend on the processing

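Of the 10 genes, VWF and CLDN5 passed in every alternative with a test and kept their direction, with adjusted p of 0.0024 to 0.0736 and 0.00446 to 0.0979, and of 0.0143 to 0.0331 and 0.0143 to 0.0416 with a cow left out. ENG kept its direction in every alternative, and its losses of the call are given with its values. The number of members called was 2 or 3 throughout, and ran from 2 to 3 with a cow left out. Without the replicate block, that is without pairing by cow, 2 members and 836 probes passed, and no member other than ENG lost its call. With the slide as a block 1898 probes passed, without moderation or a block 722, and with all probes tested 388. Leaving out a cow gave 1045 (cow 2) to 3252 (cow 5) probes, with 1533 without cow 1 and 1205 without cow 4. The median change of the members ran from -0.06 to 0.10 with a cow left out. The changes of CDH5 and VEGFA, neither past the threshold, turned sign: CDH5 was -0.0455 as the mean of its probes and ran from -0.0616 to 0.12 with a cow left out, and VEGFA ran from -0.12 to 0.10. KDR ran from -0.26 to -0.03, TEK from 0.07 to 0.17, NOS3 from -0.22 to -0.12 and PECAM1 from 0.22 (without cow 4) to 0.48 (without cow 6), none past the threshold. The causes were not tested. On slide 3, low signal over background limits the dim probes.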
